A study of Mus musculus with 40 samples.

Results

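Complement is a cascade of plasma and tissue proteins that tags and lyses targets and releases small peptides that call in leukocytes. C1q binds immune complexes and starts the classical pathway, factor B and properdin drive the alternative pathway, and both routes converge on C3, whose cleavage leads to the peptides C3a and C5a. These peptides act through receptors that are best known on neutrophils, monocytes and macrophages, while membrane proteins such as CD55 protect the body's own cells. In the gut, C3 is known to be made by stromal and myeloid cells, and C1q by tissue macrophages.

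The genes examined were the C1q chains C1qa, C1qb and C1qc, the components C3, Cfb (factor B) and Cfp (properdin), the receptors C3ar1, C5ar1 and C5ar2, and the regulator Cd55. They were taken by symbol, and all 10 were present among the 45706 genes of the deposited tables. RNA had been sequenced in 40 libraries that form 10 groups of 4, each a sorted cell type from a single source. Neutrophils and monocytes came from colon tumors and from the blood of both tumor-bearing and healthy mice, and epithelial and stromal cells came from tumors and from healthy colon.

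Tumor-bearing mice of all 6 of their groups carried the Cdx2CreERT2 transgene and Apc fl/fl, and were given tamoxifen by injection (25 mg/kg) when 8 to 10 weeks old. Cdx2CreERT2 is a tamoxifen-activated Cre driven by the promoter of Cdx2, a gene of intestinal epithelium, so that Apc, a brake on Wnt signaling, is lost there and adenomas form. The strain of these mice is labeled C57Bl6/Sv129 in the earliest library, and the final number then counts up from library to library, so only the healthy mice, labeled C57Bl6 with no transgene and no agent, have a firm strain label. Tumor, strain, transgene and tamoxifen cannot be told apart in any comparison of tumor-bearing with healthy mice. By the study's gates, neutrophils were CD45+ CD11b+ MHCII- Ly6G+ Ly6C-low cells, monocytes were Ly6G- Ly6C-high cells, epithelial cells were EpCAM+ CD45- and stromal cells EpCAM- CD45-. Most libraries name a single animal, but 1 library of blood neutrophils from tumor-bearing mice and 3 of healthy blood monocytes name a pair of animals each.

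Counts on genes totaled 10717873 to 38002939 per library, and mitochondrial genes took 5.34% to 83.9% of them. Some libraries stood apart from their label. The median epithelial marker, of 10 listed, reached 92.3% of its level in tumor epithelial cells in replicate 1 of the tumor neutrophils, against 4.95% to 15.6% in the other tumor neutrophils. In tumor stromal cells it reached 88.2% and 46.3% in replicates 1 and 2 and 19.9% and 12.1% in replicates 3 and 4. The summed RPKM of 7 fibroblast markers was 6.03 to 24.1 in tumor stromal cells against 359 to 2020 in healthy colon stromal cells, so the defining markers of fibroblasts were low in the former. The summed RPKM of 7 neutrophil markers was 1510 and 514 in tumor stromal replicates 3 and 4 but 41.2 and 8.59 in replicates 1 and 2. Some results that rest on these libraries are given with and without them, and the others are given only with them. Since each library is bulk RNA, fewer cells of a type and less RNA per cell cannot be told apart.

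The genes lie at scattered places on mouse genome mm10, except for 2 clusters. C1qb, C1qc and C1qa sit side by side on chromosome 4, on the minus strand, with C1qb at 136880129 to 136886187 and C1qa at 136895917 to 136898803. C5ar2 (16234585 to 16244154) and C5ar1 (16246743 to 16259540) are neighbors on chromosome 7, also on the minus strand. C3 lies on chromosome 17 at 57203970 to 57228136, C3ar1 on chromosome 6 at 122847138 to 122856161 and Cd55 on chromosome 1 at 130439027 to 130462744. Cfp is on the X chromosome at 20925454 to 20931555. Cfb, on chromosome 17 at 34856374 to 34862518, shares 2246 of its 2825 exonic bases with the readthrough gene Gm20547, so its counts could have been split between both and its values are uncertain. Of the Cd55 stretches of 50 bases, 8% also occur in its neighbor Cd55b, and 102 exonic bases of Cd55 overlap the antisense gene Gm16083.

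The promoters of C3ar1, C3 and C5ar2 are shown because the results turn on these genes and because each holds a match to a motif of a factor known from myeloid or stressed cells. The sequences are RefSeq windows of 250 bases before the transcript start on build GRCm38.p6, minus strand, and capitals mark the match. C3ar1 spans chr6:122856158-122856407, C3 spans chr17:57228137-57228386 and C5ar2 spans chr7:16244155-16244404.
C3ar1: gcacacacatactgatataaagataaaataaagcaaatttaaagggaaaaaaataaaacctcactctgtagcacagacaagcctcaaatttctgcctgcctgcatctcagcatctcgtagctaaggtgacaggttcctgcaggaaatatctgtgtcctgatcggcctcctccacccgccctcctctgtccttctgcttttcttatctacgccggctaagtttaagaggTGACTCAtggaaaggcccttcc
C3: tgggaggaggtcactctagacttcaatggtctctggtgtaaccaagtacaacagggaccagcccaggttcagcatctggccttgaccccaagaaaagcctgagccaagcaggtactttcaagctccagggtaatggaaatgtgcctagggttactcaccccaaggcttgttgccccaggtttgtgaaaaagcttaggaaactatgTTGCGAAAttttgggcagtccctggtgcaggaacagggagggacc
C5ar2: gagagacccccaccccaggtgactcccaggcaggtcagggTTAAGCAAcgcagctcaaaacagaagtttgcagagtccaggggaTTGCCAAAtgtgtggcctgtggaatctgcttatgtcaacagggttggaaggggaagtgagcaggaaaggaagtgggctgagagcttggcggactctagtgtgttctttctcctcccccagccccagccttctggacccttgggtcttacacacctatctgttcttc

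Both strands were searched for AP-1 (TGANTCA), C/EBP (TTGCNNAA), PU.1 (GAGGAAG) and STAT (TTCNNNGAA), which do not overlap each other in these windows. C3ar1 held 1 AP-1 match, which 6.75% of 32851 promoters hold. C3 held 1 C/EBP match and C5ar2 held 2, against 9.56% of promoters with any. C1qc and a further start of C5ar2 held 1 PU.1 match each, found in 10.6% of promoters, and no STAT match, found in 7.02% of promoters, was seen in any window. C5ar1, C1qb, Cfp and Cd55 held none of these letters within their windows. A match describes the sequence and does not show binding.

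Expression is given as RPKM, reads scaled to transcript length and library size as the authors deposited it, which allows levels of different genes to be compared. C5ar1, the receptor that draws neutrophils toward C5a, was the most abundant of the genes in tumor neutrophils and C3 in healthy colon stromal cells. In tumor neutrophils the mean C5ar1 RPKM of 172 ± 83.6 (SD, n = 4) was above 99.9% of the genes with any signal. Properdin was carried by every myeloid group, with Cfp at 3.53 to 20.8 RPKM in all 24 neutrophil and monocyte libraries and at most 3.94 in the other 16. C3ar1 was highest in tumor monocytes, at 11.3 to 28.4 RPKM, and at most 1.4 in any library of the other groups. Cfb never passed 2.13 RPKM and C1qa never passed 1.24. Most neighbors in the order of group means overlapped in their ranges. The highest group did not overlap the next for only C3ar1 and C5ar2. For C3ar1 these were tumor monocytes and healthy blood monocytes. For C5ar2 they were healthy blood neutrophils and blood neutrophils of tumor-bearing mice. Further down the order, some neighbors were also apart for C3, C5ar1, Cfp and C1qb.

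**Figure D1:**
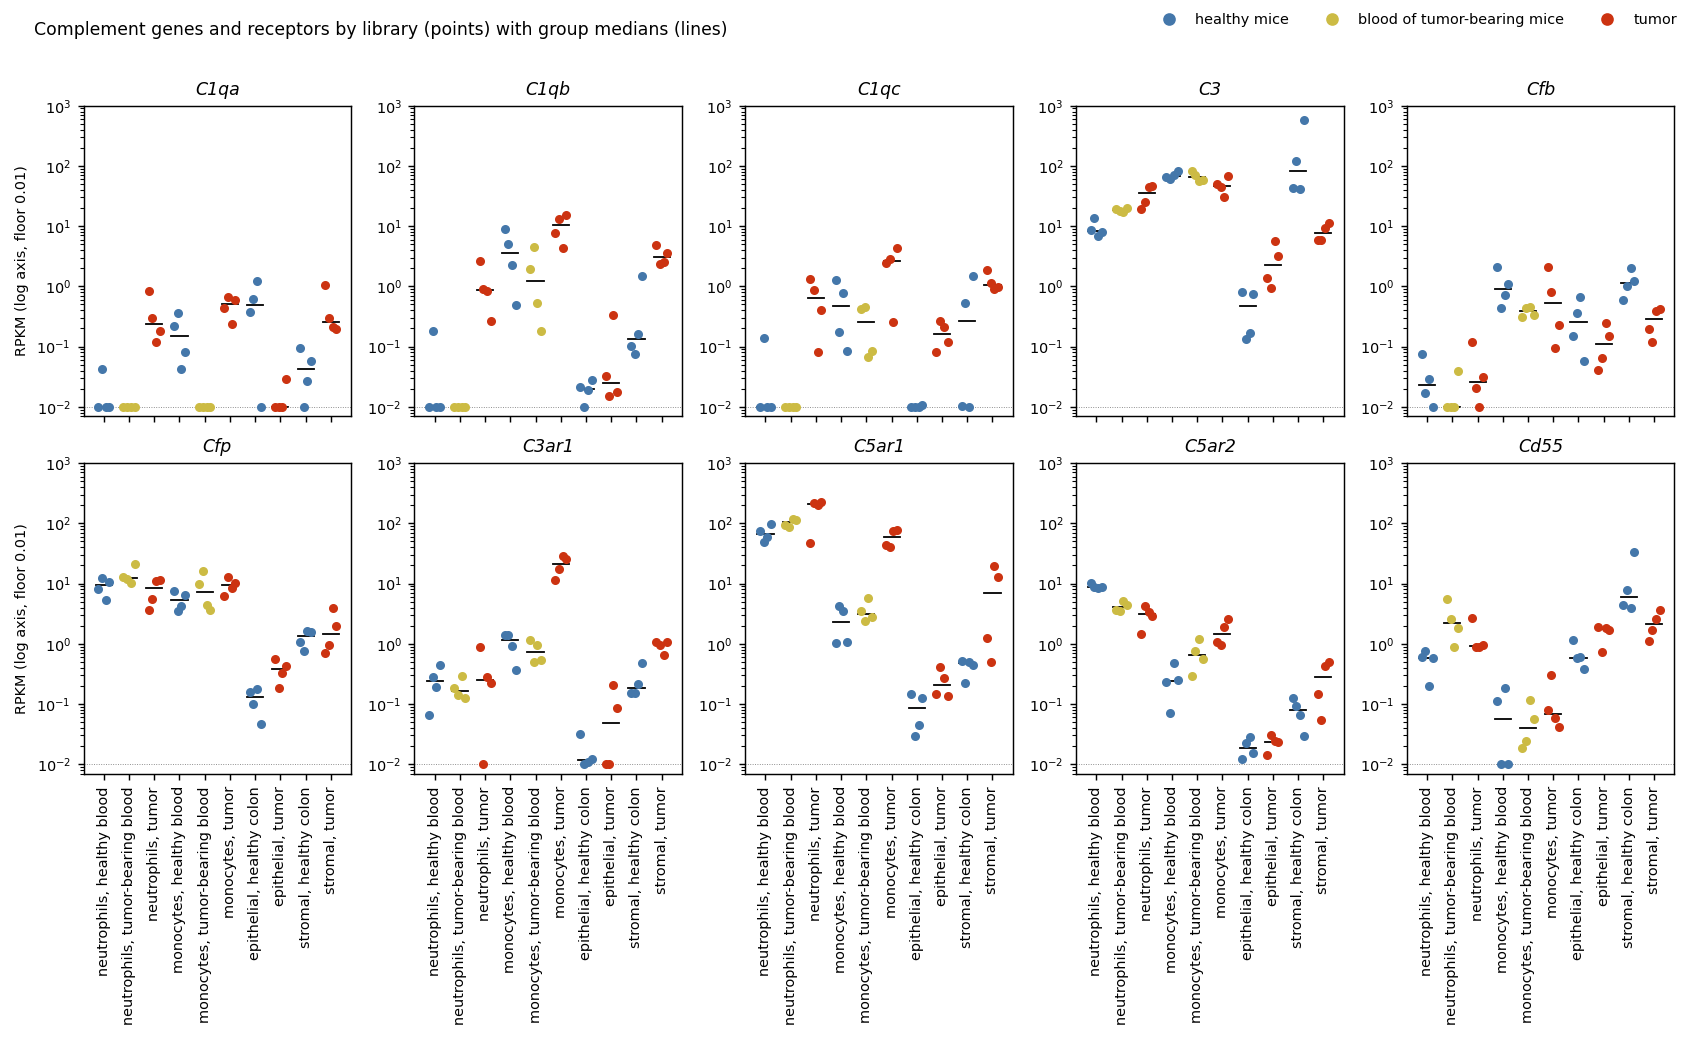
RPKM of each of the 10 genes (log axis, values under 0.01 drawn at 0.01) in the 4 libraries of each of the 10 groups, with points for libraries and black lines for group medians. C3ar1 stands out in tumor monocytes (11.3 to 28.4), C5ar1 is high in all neutrophil groups and in tumor monocytes, and C3 spans 40.9 to 572 in healthy colon stromal cells against 5.81 to 11.4 in tumor stromal cells.

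Whether monocytes differ in complement expression between blood and tumor was asked by comparing tumor monocytes with blood monocytes of tumor-bearing mice. The titles name 1 animal in both groups, and the fit did not pair its libraries. Receptors for both anaphylatoxins were far higher in the tumor, and the C1q chains were higher as well. A gene was called when its edgeR adjusted p-value was under 0.05 and its absolute log2 fold change above 1.5. By this rule 5 of the 10 genes were called higher and 0 lower, where 7.76% of the 15280 genes tested were called higher and 3.89% lower. Over the 10 genes the median log2 fold change was 2.08, against -0.03 over all genes tested.

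C5ar1 stood at 3.47, 2.4, 5.73 and 2.78 RPKM in blood monocytes and at 43.8, 39.8, 75 and 78.5 in tumor monocytes. Every tumor library was therefore above every blood library, with a log2 fold change of 4.31 ± 0.38 (SE, edgeR adjusted p = 4.85e-05). C3ar1, the receptor of C3a, was at 1.15, 0.498, 0.95 and 0.539 RPKM in blood and at 11.3, 17.2, 28.4 and 25.7 in the tumor. The groups again did not overlap, which held in this direction for 10.6% of all genes tested, and the log2 fold change was 5.0 ± 0.41 (adjusted p = 3.13e-05). C5ar2, the other C5a receptor, which does not couple to G proteins, was 0.291 to 1.19 RPKM in blood and 0.941 to 2.62 in the tumor, and its log2 fold change of 1.46 ± 0.52 missed the threshold (adjusted p = 0.0808). The 7 neutrophil markers summed to 22.6 to 40 RPKM in tumor monocytes and to 78.8 to 187 in blood monocytes.

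C1qb, the most abundant C1q chain, was at 1.96, 4.48, 0.539 and 0.183 RPKM in blood monocytes of tumor-bearing mice and at 7.64, 13.2, 4.42 and 15.1 in tumor monocytes. The groups overlapped by a narrow margin, and the log2 fold change was 2.71 ± 0.81 (adjusted p = 0.0424), which passed in 2 of 8 fits that left out a library. C1qc went from 0.0677 to 0.449 RPKM to 0.257 to 4.35, with a log2 fold change of 3.48 ± 0.87 (adjusted p = 0.0206), which passed in 5 of those 8 fits. C1qa had 0 counts in every blood library and 134 counts over the tumor libraries, so it was at least 9.17-fold higher against a floor of 3 counts per library (adjusted p = 0.00177). Macrophage markers, 8 listed genes, summed to 71.1 to 147 RPKM in tumor monocytes and 37.2 to 111 in blood monocytes. None of the 8 was at 0 in all libraries. Their part in the C1q result was not tested.

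C3 itself was 31 to 67 RPKM in tumor monocytes and 56.3 to 81.4 in blood monocytes, overlapping ranges with a log2 fold change of -0.24 ± 0.22 (adjusted p = 0.507). Cfp, Cfb and Cd55 did not pass either. Of 46 other complement genes listed, 19 were tested in monocytes, 1 was called higher and 0 lower. Itgax, the alpha chain of complement receptor 4, was 0.334 to 0.806 RPKM in blood and 6.13 to 8.09 in the tumor (log2 fold change 3.95 ± 0.32, adjusted p = 2.60e-05).

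In neutrophils the same comparison of tumor with blood, again with 1 animal named in both groups and not paired, gave few calls. Of the 10 genes 7 were tested, 1 was called higher and 0 lower, where 11.9% of 13674 genes were called higher and 4.41% lower. The called gene was C1qb, which had 0 counts in all 4 blood libraries and was at 2.65, 0.894, 0.822 and 0.261 RPKM in the tumor. It was at least 21.9-fold higher against the floor of 3 counts per library (adjusted p = 0.004). C1qa and C1qc, which did not pass the filter on low counts, were at 0.12 to 0.834 and 0.0815 to 1.32 RPKM in tumor neutrophils, while blood libraries held 0 and 1 count in total. Replicate 1, which holds epithelial transcripts, was the highest for each chain, and without it C1qb was still called (adjusted p = 0.0111) and C1qc was called as well (adjusted p = 0.00808). Macrophage markers summed to 1.43 to 9.72 RPKM in tumor neutrophils and 2.75 to 8.13 in blood neutrophils. MHC class II genes, 4 listed, summed to 21.6 to 36.1 RPKM in tumor neutrophils and 0.295 to 2.89 in blood neutrophils, without overlap, although the gate was MHCII-. Epithelial markers (10 genes, 11.8 to 161 against 0.624 to 1.54 RPKM) and fibroblast markers (7 genes, 1.8 to 4.94 against 0.304 to 0.926) were also higher in every tumor library. The part of other cells in the C1q values was not tested.

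C5ar1 was at 93.5, 87.2, 120 and 115 RPKM in blood neutrophils of tumor-bearing mice and at 47.1, 214, 202 and 224 in tumor neutrophils. Replicate 1 lay below the blood range and the other 3 above it. With all libraries the log2 fold change was 0.89 ± 0.55 (adjusted p = 0.294), and without replicate 1 it was 1.24 ± 0.25 (adjusted p = 0.0124), still under the fold threshold. That replicate had 16.5 RPKM of the leukocyte gene Ptprc against 43.8 to 46.3 in the others. C3 was at 17.5 to 20.3 RPKM in blood and 19.4, 25.2, 45.5 and 45.8 in the tumor, with the lowest tumor value within the blood range. Its log2 fold change was 0.91 ± 0.37 (adjusted p = 0.118) with all libraries and 1.17 ± 0.17 (adjusted p = 0.00259) without replicate 1. C5ar2 (1.46 to 4.23 RPKM against 3.47 to 5.22 in blood), Cd55 and Cfp overlapped between tumor and blood and were not called.

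Of the 46 other complement genes 22 were tested in neutrophils, 5 were called higher in the tumor and 0 lower. Cfi, which cleaves C3b, was at most 1 count per library in blood and 0.166 to 5.29 RPKM in the tumor. The mitochondrial protein gene C1qbp (0.0694 to 1.62 RPKM in the tumor) and Clu, a regulator of the terminal pathway (0.408 to 14.8), followed. In tumor epithelial cells Cfi was at 4.79 to 19.7 RPKM, C1qbp at 2.36 to 4.82 and Clu at 28.4 to 48.3. Epithelial markers summed to 11.8 to 161 RPKM in tumor neutrophils and 0.624 to 1.54 in blood neutrophils, and their part in these calls was not tested.

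The difference between the cell types was tested directly as an interaction, the blood-to-tumor change of neutrophils less that of monocytes. The titles name some animals for both cell types. The fit treated their libraries as independent, and no fit of this interaction used the animal as a block. C3ar1 differed by -4.48 ± 1.04 on the log2 scale (edgeR adjusted p = 0.0229) and C5ar1 by -3.53 ± 0.69 (adjusted p = 0.0092), so both receptors increased more in monocytes. These were 2 of the 10 genes, where 1.26% of 17465 genes had a difference of this sign past the adjusted threshold. Of 26 other complement genes tested, C1qbp (5.17 ± 1.18, adjusted p = 0.0211) and Cd93 (3.20 ± 0.58, adjusted p = 0.00581) differed upward and Itgax (-2.56 ± 0.59, adjusted p = 0.0211) downward. Among all 17465 genes tested, 476 passed upward and 220 downward. Without replicate 1 of the tumor neutrophils, C5ar1 still differed by -3.18 ± 0.46 (adjusted p = 0.00204).

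**Figure D2:**
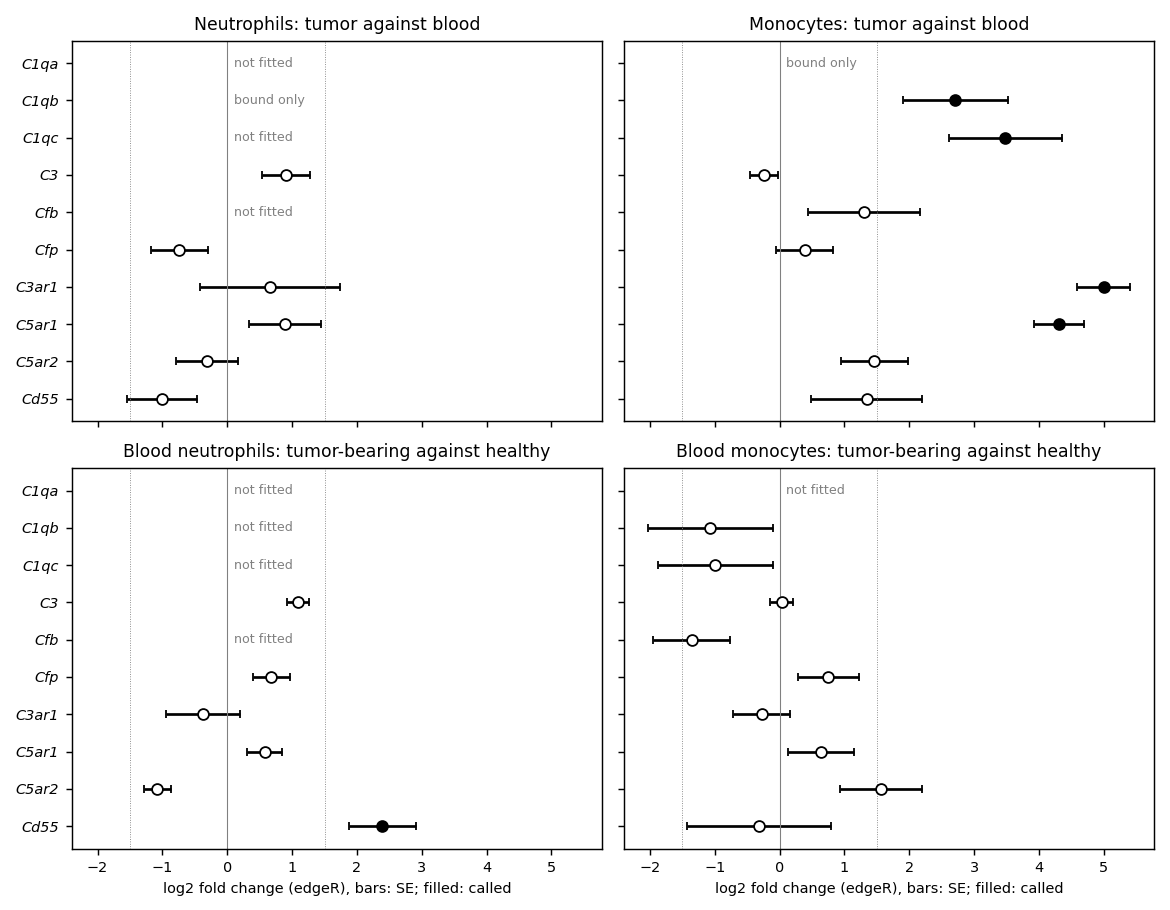
Log2 fold changes (points) with SE (bars) of the 10 genes in 4 comparisons of neutrophils and monocytes, filled where called, with dotted lines at the fold threshold of 1.5. In the panel of tumor against blood monocytes C3ar1 (5.0), C5ar1 (4.31), C1qc (3.48) and C1qb (2.71) are filled, while among the fitted changes of tumor neutrophils none is, and genes too low for a fit or for more than a bound are marked in grey.

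Blood neutrophils of tumor-bearing mice were then set against those of healthy mice. Cd55 and C3 were higher and C5ar2 was lower in the tumor-bearing mice. Of the 6 genes tested 1 was called, Cd55, where 4.01% of 13360 genes were called. With the adjusted p-value alone 3 genes passed, where 6.52% of all genes did. For each of these 3 genes the groups did not overlap, which held for 6.38% of all genes upward and 7.75% downward.

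Cd55, which speeds the decay of C3 convertases on cell membranes, was at 0.602, 0.769, 0.198 and 0.574 RPKM in healthy and at 5.63, 2.63, 0.895 and 1.8 in tumor-bearing mice. All 4 libraries of tumor-bearing mice lay above the healthy range, with a log2 fold change of 2.39 ± 0.52 (adjusted p = 0.0245). The call was lost in 4 of 8 fits without a library. C3 was at 8.62, 13.6, 6.82 and 8.1 RPKM in healthy and at 19.5, 18, 17.5 and 20.3 in tumor-bearing mice, a log2 fold change of 1.09 ± 0.17 (adjusted p = 0.0064) with no overlap of the groups. C5ar2 went the other way, from 10.4, 8.83, 8.46 and 8.7 RPKM to 3.61, 3.47, 5.22 and 4.43, again without overlap, and its log2 fold change was -1.08 ± 0.21 (adjusted p = 0.0174). C5ar1 was at 48.8 to 98.1 RPKM in healthy and at 87.2 to 120 in tumor-bearing mice, ranges that overlapped (log2 fold change 0.58 ± 0.27, adjusted p = 0.247).

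The share of C5ar2 in the summed RPKM of both C5a receptors describes their balance within a library. It was 8.14% to 15.3% in healthy blood neutrophils, 3.7% to 4.15% in blood neutrophils of tumor-bearing mice and 1.25% to 3% in tumor neutrophils. These 3 ranges did not overlap. In monocytes the share was 1.66% to 18.6% in healthy blood, 7.73% to 23.9% in blood of tumor-bearing mice and 2.31% to 3.23% in tumors, so blood monocytes spread widely while tumor monocytes stayed within or just above the range of tumor neutrophils. Blood monocytes hold few C5ar2 counts, at least 12 and at most 225 per library, so their shares are less precise.

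**Figure D3:**
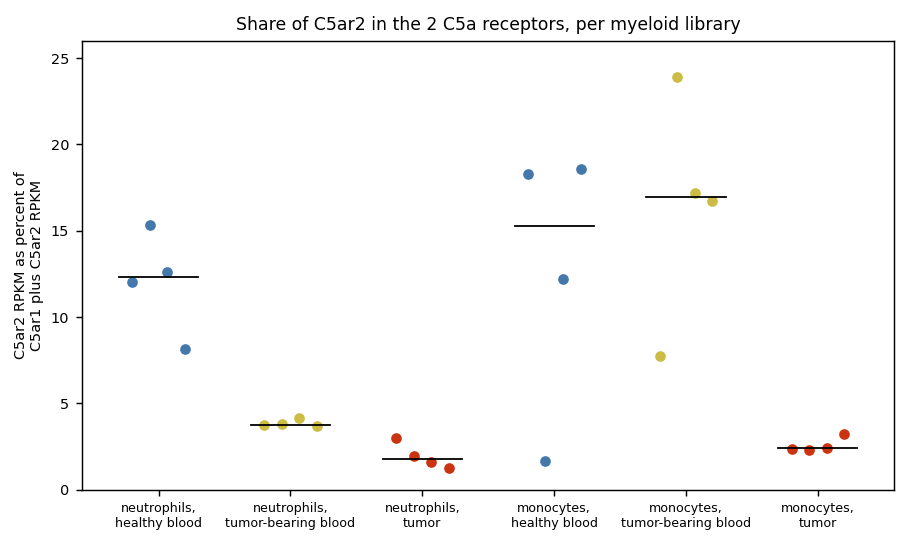
C5ar2 RPKM as a percentage of the summed C5ar1 and C5ar2 RPKM (linear axis) in each library of the 6 myeloid groups, with points for libraries and black lines for medians. Healthy blood neutrophils sit at 8.14% to 15.3%, all above the neutrophils of tumor-bearing mice, and tumor monocytes sit at 2.31% to 3.23%.

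Among the 46 other complement genes 19 were tested in this comparison, 5 were called higher and 2 lower. Hc, which encodes C5, had 4 counts over the healthy and 122 over the tumor-bearing libraries, a ratio of 32.7 with a 95% exact counting interval of 12.4 to 122. C1ra and C1rb, near-identical copies of the C1r protease that are counted with uncertainty, were at 0.0707 to 0.358 and 0.0731 to 0.387 RPKM in tumor-bearing mice and at most 0.0167 in healthy mice. Cd55b, whose counts cannot be fully separated from those of Cd55, was called too (log2 fold change 2.36 ± 0.53, adjusted p = 0.028). Cd93 (log2 fold change -1.85 ± 0.33, adjusted p = 0.0118) and Itgax (-1.82 ± 0.30, adjusted p = 0.00854) were lower in tumor-bearing mice. Platelet markers, 4 listed genes, summed to 1.73 to 225 RPKM in healthy and 2.13 to 40.3 in tumor-bearing blood neutrophils, ranges that overlapped. Neutrophil markers summed to 3730 to 8560 RPKM in healthy and 15400 to 20000 in tumor-bearing mice and macrophage markers to 8.24 to 9.32 and 2.75 to 8.13, both without overlap. Their part in the changes of Cd55, C3 and C5ar2 was not tested.

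For blood monocytes none of the 9 genes tested was called between tumor-bearing and healthy mice, where 0.209% of 15313 genes were called. At an unadjusted edgeR p-value under 0.05 C5ar2 and Cfb would pass, with log2 fold changes of 1.56 ± 0.63 and -1.36 ± 0.60 and adjusted p-values of 0.464 and 0.498. Over all genes tested, 1507 of 15313 would pass at that level. None of the 9 was called by limma-voom or DESeq2 either. C3 was 61.1 to 81.6 RPKM in healthy and 56.3 to 81.4 in tumor-bearing mice. C1qb overlapped broadly, at 0.482 to 9.07 RPKM in healthy and 0.183 to 4.48 in tumor-bearing mice. C1qa, not tested for its low counts, had 43 counts over the healthy libraries and 0 over the others, so it was at least 3.08-fold lower in tumor-bearing mice. None of the 20 other complement genes tested was called by edgeR. An unadjusted p-value under 0.05 was found for 5 of them, against 1507 of 15313 over all genes.

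Neutrophils and monocytes of healthy blood differed in most of these genes. The 4 neutrophil libraries name single animals that also went into 2 of the monocyte libraries, each from a pair. Of 9 tested, 3 were called higher in neutrophils and 3 lower, where 16.7% and 20.4% of 15033 genes were called higher and lower. C5ar1 (48.8 to 98.1 against 1.03 to 4.19 RPKM) and C5ar2 (8.46 to 10.4 against 0.0705 to 0.487) were neutrophil genes, with log2 fold changes of 5.64 ± 0.58 (adjusted p = 5.62e-05) and 5.91 ± 0.51 (adjusted p = 2.15e-05). Cd55 was also higher in neutrophils (log2 fold change 3.58 ± 1.00, adjusted p = 0.0137), with 1 to 56 counts per monocyte library. C3 was higher in monocytes, at 61.1 to 81.6 RPKM against 6.82 to 13.6 in neutrophils (log2 fold change -2.17 ± 0.20, adjusted p = 2.76e-05). C1qb was 0.482 to 9.07 RPKM in monocytes, while 3 neutrophil libraries had 0 counts and replicate 2 had 18. Cfb held 163 counts over the monocyte libraries and 4 over the neutrophil libraries. Cfp, at 5.28 to 12.6 against 3.53 to 7.6 RPKM, had a log2 fold change of 1.49 ± 0.30 (adjusted p = 0.00263), just under the fold threshold. Cfp was called under several alternatives. With libraries that share animals as a block the 6 called genes were the same, with C5ar1 at 5.76 ± 0.66 (adjusted p = 5.65e-04) and C3 at -2.36 ± 0.22 (adjusted p = 2.60e-04).

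Among the other complement genes 6 were called higher in healthy blood neutrophils and 2 lower, of 17 tested. Cd46, a membrane cofactor for C3b cleavage, was at 1.85 to 3.15 RPKM in neutrophils and 0.131 to 0.427 in monocytes (log2 fold change 3.88 ± 0.36, adjusted p = 3.34e-05). C1qbp (-4.26 ± 1.00, adjusted p = 0.00565) was lower. Cd55b (3.43 ± 1.12, adjusted p = 0.028), Itgax (2.60 ± 0.48, adjusted p = 0.0015) and Cr1l, a membrane regulator of C3 (1.79 ± 0.18, adjusted p = 3.98e-05), were higher.

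Between the cell types of the tumor, Cd55 was higher and C3ar1, C1qb and Cfb were lower in neutrophils than in monocytes. Fits over the 16 tumor libraries called 1 of the 10 genes higher and 3 lower in neutrophils, where 9.82% and 4% of 19026 genes were called higher and lower. Over all genes tested the median log2 fold change was 0.31 here and 0.11 without mitochondrial genes. C3ar1 was at 0.872, 0.000313, 0.284 and 0.223 RPKM in neutrophils against 11.3 to 28.4 in monocytes, a log2 fold change of -5.57 ± 1.06 (adjusted p = 0.00335). Cd55 was 0.899 to 2.65 RPKM in neutrophils and 0.0413 to 0.299 in monocytes, with a log2 fold change of 4.02 ± 0.63 (adjusted p = 0.001). C1qb was lower in neutrophils (-2.63 ± 0.76, adjusted p = 0.0282), and so was Cfb (-3.68 ± 1.05, adjusted p = 0.0274), which had 0 to 4 counts per neutrophil library. With the animal named in the titles as a block, which 3 animals share between these groups, C3ar1 and Cd55 remained called and C1qb and Cfb did not (adjusted p = 0.136 and 0.257). Over all genes that block called 901 of 19026, against 2629 in the main fit.

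C5ar1 was 47.1 to 224 RPKM in tumor neutrophils and 39.8 to 78.5 in tumor monocytes, and its log2 fold change of 2.32 ± 0.86 missed the threshold (adjusted p = 0.0769). Without replicate 1 of the tumor neutrophils C5ar1 was called (2.67 ± 0.83, adjusted p = 0.0365) and so was C5ar2 (1.95 ± 0.59, adjusted p = 0.0323). C3 did not differ past the threshold (log2 fold change 0.21 ± 0.44, adjusted p = 0.77), with 19.4 to 45.8 RPKM in neutrophils and 31 to 67 in monocytes. Of 29 other complement genes tested 3 were called higher and 3 lower, led by Cd55b (4.08 ± 0.63, adjusted p = 8.46e-04), Cd46 (3.32 ± 0.67, adjusted p = 0.00458) and Clu (2.59 ± 0.76, adjusted p = 0.0313) above. C4b and C4a, near-identical copies of the C4 gene, were among the genes below.

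Between stromal cells of tumors and of healthy colon, C3 was lower and the receptors C3ar1 and C5ar1 were higher in the tumor. C3 was at 43.8, 121, 40.9 and 572 RPKM in healthy colon stromal cells and at 6, 5.81, 9.48 and 11.4 in tumor stromal cells. Every tumor library lay below every healthy library, and the log2 fold change was -4.28 ± 0.94 (edgeR adjusted p = 0.0258). In all, 2 of the 10 genes were called higher in tumor stromal cells and 1 lower, where 3.39% and 5.01% of 19081 genes were called upward and downward. The fall of C3 passed in 4 of 8 fits without a library, and its log2 fold change moved from -4.28 to -2.76 without healthy replicate 4, which was the highest library.

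Within the healthy libraries C3 followed the order of the fibroblast markers, whose summed RPKM was 501, 654, 359 and 2020, and replicate 4 was the highest for both. Within the tumor libraries, where these markers summed to 6.03, 24.1, 20.7 and 19.8, C3 did not follow their order. There replicate 2 had the most fibroblast markers and the lowest C3, at 5.81 RPKM. Cd55 followed the same order in the healthy libraries, at 4.36, 7.83, 3.99 and 34.1 RPKM against 1.1, 1.67, 2.54 and 3.67 in the tumor. Its groups did not overlap, as for 17.3% of all genes in this direction and 4.21% in the other, but the log2 fold change of -2.18 ± 0.76 missed the threshold (adjusted p = 0.11) and was -0.93 without healthy replicate 4. Cfb was 0.599 to 2.02 RPKM in healthy and 0.118 to 0.424 in tumor stromal cells (log2 fold change -1.81 ± 0.60, adjusted p = 0.0938). The part of the fibroblast share in these results was not tested.

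C3ar1 was higher in tumor stromal cells, at 1.08, 0.967, 0.653 and 1.07 RPKM against 0.155, 0.153, 0.216 and 0.482, a log2 fold change of 2.28 ± 0.48 (adjusted p = 0.0215). It was called without replicates 3 and 4 (2.45 ± 0.52, adjusted p = 0.016) and not without replicates 1 and 2 (2.07 ± 0.56, adjusted p = 0.0764). C5ar1 was at 1.26, 0.508, 19.5 and 12.7 RPKM in the tumor and 0.225 to 0.527 in healthy colon, with overlapping ranges and a log2 fold change of 4.60 ± 1.05 (adjusted p = 0.0293). Only replicates 3 and 4, the libraries with neutrophil markers, were high, and without them the log2 fold change was 1.44 ± 0.47 (adjusted p = 0.065). C1qb was at 2.32 to 4.81 RPKM in tumor stromal cells and at 0.103, 0.0759, 0.16 and 1.51 in healthy stromal cells. These ranges did not overlap, yet its log2 fold change of 3.16 ± 0.98 missed the threshold (adjusted p = 0.0778) and passed without healthy replicate 4 (5.27, adjusted p = 0.00424). Macrophage markers summed to 6.69 to 13.4 RPKM in tumor and 7.92 to 13.6 in healthy stromal cells, ranges that overlapped.

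**Figure D4:**
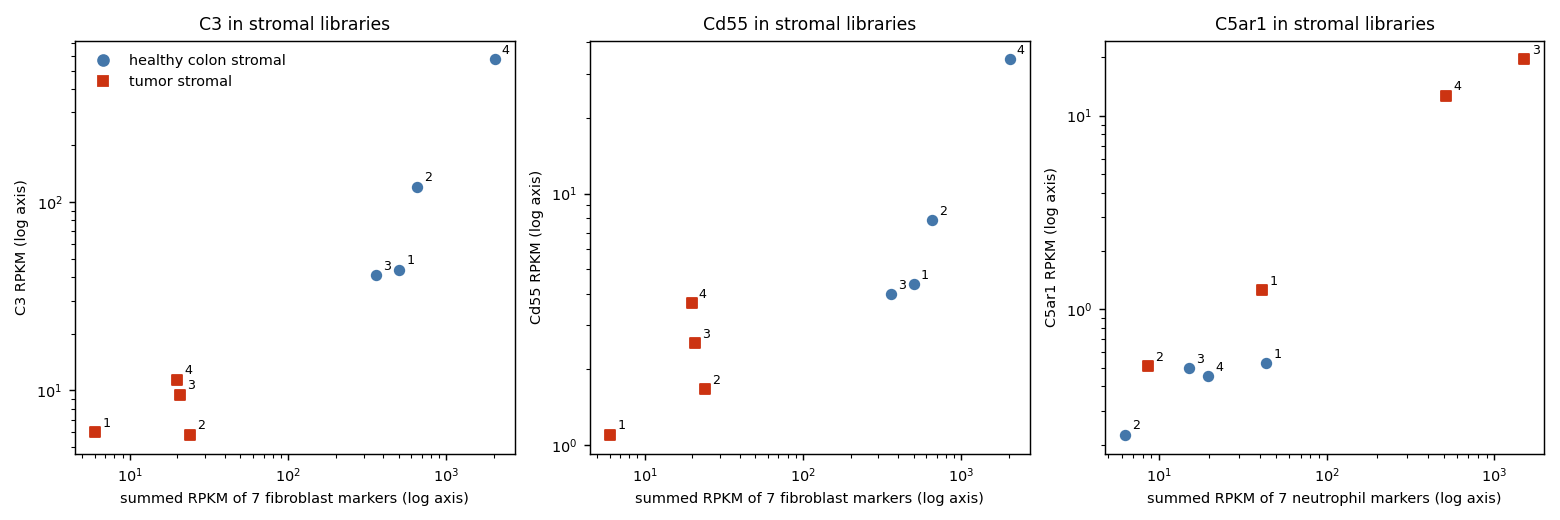
C3, Cd55 and C5ar1 RPKM (log axes) in the 8 stromal libraries against the summed RPKM of 7 fibroblast markers (C3, Cd55) or 7 neutrophil markers (C5ar1), with numbers for replicates. Healthy libraries (circles) sit high for fibroblast markers and C3, and tumor replicates 3 and 4 (squares) sit high for neutrophil markers and C5ar1 (19.5 and 12.7).

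Other complement genes were, like C3, lower in tumor than in healthy stromal cells. Of the 46 listed 31 were tested, 11 were called lower and 2 higher, and their median log2 fold change was -1.54 against 0.03 over all genes tested. C7, a component of the membrane attack complex, was at 6.19 to 37.8 RPKM in healthy and 0.0289 to 0.247 in tumor stromal cells (log2 fold change -6.53 ± 0.95, adjusted p = 0.00679). The scavenger collectin Colec12 (-5.34 ± 0.93, adjusted p = 0.0116) and Serping1, the inhibitor of C1r and C1s, came next. Serping1 was at 74.4 to 329 RPKM in healthy and 2.63 to 11 in tumor stromal cells (-4.48 ± 0.66, adjusted p = 0.00685). Direct partners of C3 were lower as well, with C4b at -4.34 ± 0.45 (adjusted p = 0.00433) and C2 at -2.72 ± 0.43 (adjusted p = 0.00835). Cfi (7.81 ± 1.83, adjusted p = 0.0319) and C4bp (3.53 ± 0.90, adjusted p = 0.0416) were higher. Cfi is also a gene of tumor epithelial cells, as given above, and epithelial markers summed to 33 to 214 RPKM in tumor and 2.43 to 34.6 in healthy stromal cells. Fibroblast markers summed to 6.03 to 24.1 RPKM in tumor and 359 to 2020 in healthy stromal cells. The part of epithelial cells or fibroblasts in these calls was not tested.

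**Figure D5:**
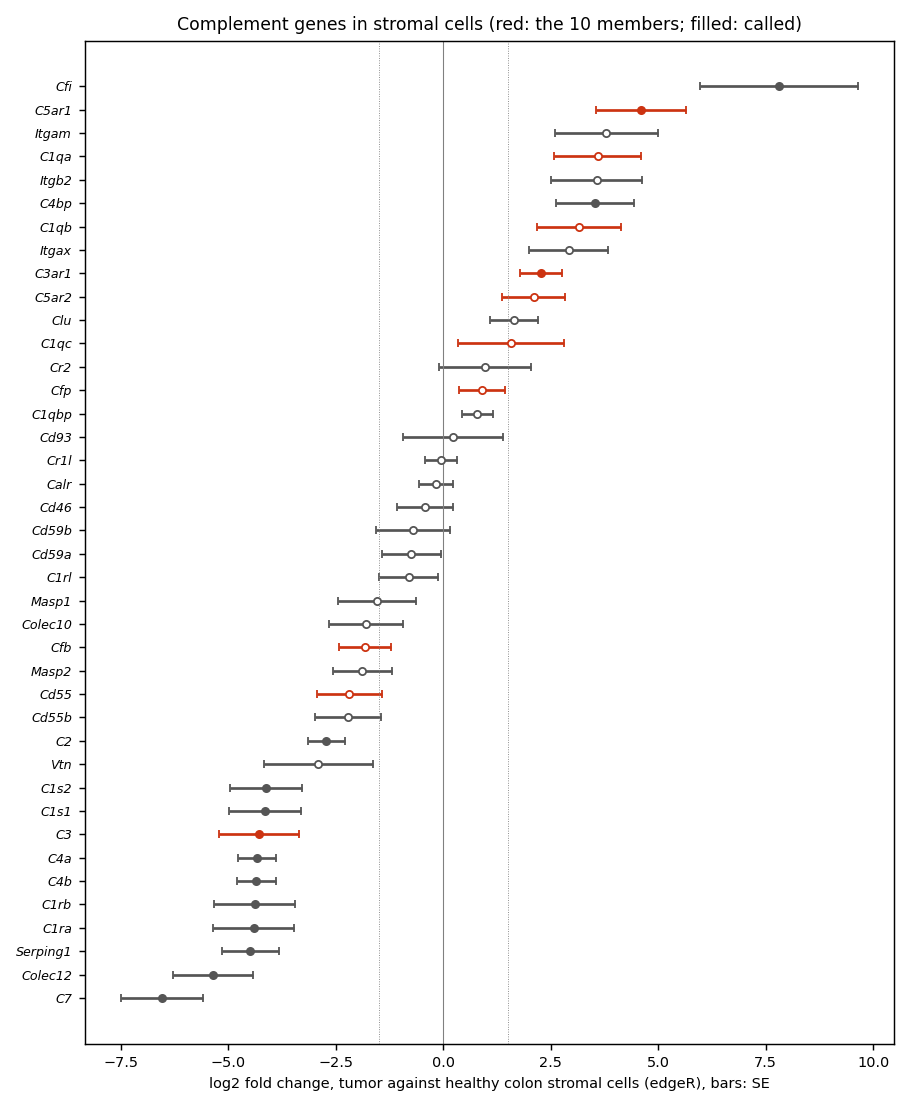
Log2 fold changes (points) with SE (bars) between tumor and healthy colon stromal cells for the 10 genes (red) and other complement genes tested (grey), filled where called, with dotted lines at the fold threshold of 1.5. C3 (-4.28) lies among C4b (-4.34), C2 and C7 (-6.53) on the left, and the receptors C3ar1 (2.28) and C5ar1 (4.60) lie on the right.

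Epithelial cells carried little of these genes, with no library above the 5.7 RPKM of C3 in tumor replicate 3. Of 5 tested, 1 was called higher in tumor than in healthy epithelial cells and 0 lower, where 7.52% of 16085 genes were called higher and 7.88% lower. The called gene was C1qc, at 0.0804 to 0.269 RPKM in the tumor, with 100 counts against 2 in healthy colon, a ratio of 48.7 with a 95% exact counting interval of 13.1 to 407. C1qc was no longer called in 4 of 8 fits without a library. C3 was at 0.813, 0.136, 0.169 and 0.759 RPKM in healthy and 1.39, 0.947, 5.7 and 3.22 in tumor epithelial cells, without overlap. Its edgeR log2 fold change was 0.90 ± 0.92 (adjusted p = 0.535), while limma-voom called C3 (2.58 ± 0.81, adjusted p = 0.0365). In this comparison 20.6% of all genes tested had every tumor RPKM above every healthy RPKM and 2.44% had every one below. The reason for the unlike results for C3 was not tested. C1qa, not tested, had 131 counts over healthy epithelial libraries (21, 46, 64 and 0) and 3 over tumor libraries, although C1qb and C1qc had at most 3 counts in any of those healthy libraries. Healthy replicate 4, with 0 counts of C1qa, also had 83.9% mitochondrial counts.

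The difference between epithelial and stromal cells in their change from healthy to tumor was tested as an interaction. Here too some animals are named for both cell types, and no fit used the animal as a block. C3 differed by 5.23 ± 1.42 (adjusted p = 0.0213), with the fall in stromal cells. C5ar1 differed by -4.42 ± 1.42 (adjusted p = 0.0466) with all libraries and by -1.29 ± 1.20 (adjusted p = 0.502) without tumor stromal replicates 3 and 4. C1qa passed too (adjusted p = 0.00265), but its size rests on groups with few or no counts. These were 3 of the 10 genes, where 15.1% of 20901 genes passed. Of 34 other complement genes tested 7 differed upward and 2 downward. Of 20 other complement genes tested in the epithelial comparison, 5 were called higher and 1 lower, led by Cfi (6.89 ± 0.96, adjusted p = 6.34e-04), Clu (5.49 ± 0.92, adjusted p = 0.00178) and Cd59a, an inhibitor of the membrane attack complex (3.54 ± 0.70, adjusted p = 0.00463). Itgam, a leukocyte gene of 0.151 to 0.374 RPKM in healthy epithelial cells, was lower (-1.53 ± 0.45, adjusted p = 0.0353).

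Tumor monocytes and tumor stromal cells differed in 6 of the 10 genes, where 6.9% and 13.4% of 19026 genes were called higher and lower in monocytes. C3ar1 (4.68 ± 1.02, adjusted p = 0.0047), C5ar1 (3.12 ± 0.89, adjusted p = 0.0199), C5ar2 (2.82 ± 0.65, adjusted p = 0.00654), C3 (2.80 ± 0.47, adjusted p = 0.00121) and Cfp (2.58 ± 0.58, adjusted p = 0.00592) were higher in monocytes. Cd55 was lower, at 0.0413 to 0.299 RPKM against 1.1 to 3.67 (-4.0 ± 0.63, adjusted p = 7.90e-04). With the animal as a block, which a single animal shares between these groups, only Cd55 was called (adjusted p = 0.033), and the adjusted p-values of the other 5 were 0.154 to 0.201. Over all genes that block called 333 of 19026, against 3864 in the main fit. Without tumor stromal replicates 1 and 2 only C3, C3ar1 and Cd55 were called, and C5ar1 was at 2.19 ± 0.73 (adjusted p = 0.0635). Without replicates 3 and 4 all 6 were called, with C5ar1 at 6.27 ± 0.94 (adjusted p = 6.34e-04). Over all genes, 2581 of 20929 were called without replicates 1 and 2 and 4105 of 20236 without replicates 3 and 4. Of 29 other complement genes tested 5 were higher in monocytes and 7 lower, among them Hc (4.86 ± 1.43, adjusted p = 0.0224) and Itgam (3.54 ± 0.88, adjusted p = 0.01) above and C1s1 (-4.34 ± 1.04, adjusted p = 0.00774), Cd55b (-4.07 ± 0.63, adjusted p = 6.55e-04) and Serping1 (-3.94 ± 0.98, adjusted p = 0.0096) below.

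Tumor stromal cells were above tumor epithelial cells in 6 of the 10 genes, where 4.08% of 19026 genes were called higher and 0.0105% lower. C1qb had the lowest adjusted p-value, with 2.32 to 4.81 RPKM in stromal cells against 0.0153 to 0.333 in epithelial cells (5.14 ± 0.86, adjusted p = 0.0043), and C1qa, C3ar1, C5ar1, C5ar2 and Cfp were called with it. None was called without tumor stromal replicates 3 and 4, where C1qa and C1qb had adjusted p-values of 0.0526 each. In that fit 21 of 20236 genes were called at all, against 779 of 19026 in the main fit. With the animal as a block, which 2 animals share, C5ar1 (adjusted p = 0.0228) and C5ar2 (adjusted p = 0.0237) were called and the others were not. That block called 355 of 19026 genes. Of 29 other complement genes 7 were called higher, led by Cd93 (6.90 ± 1.16, adjusted p = 0.00439), Itgb2 (6.38 ± 0.95, adjusted p = 0.00396) and C1s2 (5.94 ± 1.24, adjusted p = 0.0126).

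Exact 2-sided permutation tests of the RPKM values, over the 70 ways to split 8 libraries into groups of 4, gave a p-value under 0.05 in 42 of 100 pairs of gene and comparison. The smallest p-value this design allows is 0.0286, which becomes 0.068 after Benjamini-Hochberg adjustment over the 100 pairs, so none can pass on its own. All 42 were at this smallest p-value, among them C3ar1 and C5ar1 in monocytes, Cd55, C3 and C5ar2 in blood neutrophils and C3 in stromal cells. This p-value means that the groups did not overlap. Such separation held for 20.6% of all genes upward in epithelial cells and 17.3% downward in stromal cells. The share over all genes is not given here for every comparison pooled, so the 42 are not read as a result about complement genes.

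Genes with the most similar pattern were sought over the 40 libraries by Pearson's r of log2(RPKM + 1), among 4904 genes with a group mean of at least 5 RPKM. The libraries share cell types and depth, so r is only a description. C5ar1 was most like Ccr1 (r = 0.98), Slpi (0.975) and Clec4d (0.973), and Cfp was most like Fcgr3 (0.95), Ncf4 (0.949) and Fmnl1 (0.946). C3ar1 ran with AI504432 (0.945), Gm6377 (0.944) and the potassium channel gene Kcna3 (0.933), and C5ar2 with Gm16894 (0.946), Gm37347 (0.94) and Trpm2 (0.937). C3 ran with Vim (0.886), Qk (0.884) and Ifnar2 (0.866), and Cd55 with Cd55b (0.994), Reck (0.877) and Col5a1 (0.837). C1qc was most like its neighbor C1qb (0.851). C1qc, with a highest group mean of 2.49 RPKM, was not among the genes searched. Of those searched, C1qb was most like Ass1 (0.828), Gm5424 (0.822) and Havcr2 (0.819), all below its r with C1qc. C1qa, the lowest chain, reached only 0.668, with Prdx6b. Among the 10 genes C5ar1 and C5ar2 had the highest r (0.875), followed by C1qb and C1qc and by C5ar1 and Cfp (0.796).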

How the data were processed

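RNA of the sorted cells was amplified before library preparation. Per the labels, bcl2fastq, Bowtie2 and limma were used with build mm10; the aligner's version, annotation release and strand setting are not given in the sources used here. The authors deposited expected counts per Ensembl gene, which were rounded, and RPKM values. Symbols came from GENCODE M21 and matched 45143 of 45706 genes.

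Genes passing filterByExpr were fitted with TMM scaling and edgeR 4.0.16 (quasi-likelihood, robust) in R 4.3.3, each comparison on its own groups and tumor cell types over their 16 libraries. Benjamini-Hochberg adjusted p-values cover all genes tested. Blocks for replicate number or animal were alternatives only. Correlations of same-numbered libraries ranged from -0.247 to 0.211. Replicate numbers do not always follow the animals, so these correlations cannot show whether libraries of an animal vary together. Animal T5, for example, is replicate 4 of the tumor neutrophils and replicate 2 of the blood neutrophils. Libraries that share an animal were treated as independent in the main fits. The variance between replicates was 21.5 to 856.1 times the counting variance, and p-values measure the spread between these libraries. Tested on simulated data for tumor against blood neutrophils (13100 genes), the fit recovered 23% of genes changed by 2 and 83.5% of genes changed by 4 on the log2 scale. The fit over 16 tumor libraries recovered 24% and 74%, and the interaction of neutrophils and monocytes 8% and 58%. The changed genes were drawn from those with higher mean counts, so recovery of genes with few counts was not covered. RPKM values were compared with scipy 1.17.1. Intervals and floors (3 counts) cover counting error only.

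Named genes were the 10 members, of the 46 other complement genes the 3 called genes with the largest change in each direction and called direct partners, and the 3 most similar genes. A gene of the list is counted but not reported by name here. Members and lists were chosen with earlier results of these data known. Other settings tried were DESeq2 1.42.0, limma-voom (limma 3.58.1, the tool of the study), no filter or a minimum of 10 counts per library, scaling by RLE, dropping mitochondrial genes, a fit over all 40 libraries, limma on log2 RPKM (pseudocounts 0.1 and 1), blocks for replicate number or animal, no fold threshold, and libraries left out. Summing the counts of Cd55 with Cd55b and of Cfb with Gm20547, leaving out tumor stromal replicates 3 and 4, and the block for animals of healthy blood, were chosen after seeing the data.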

Additional observations from a re-analysis of the deposited data

Results flagged for a closer look

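In groups of 4 a library was singled out when its gap to the next library exceeded Dixon's 95% critical share of the group's range, which chance gives in about 1 of 20 groups. Among 91 sets of values 12 were singled out, several from the same library. Healthy colon stromal replicate 4 was the highest for C3 (572 RPKM, others 40.9 to 121), Cd55 (34.1, others 3.99 to 7.83) and C1qb (1.51, others 0.0759 to 0.16), and it had the most fibroblast markers. Tumor neutrophil replicate 1 was the lowest for C5ar1 (47.1 RPKM, others 202 to 224) and the highest for Cd55 (2.65, others 0.899 to 0.957), and it held epithelial transcripts. Healthy blood neutrophil replicate 2 was the only library of its group with more than 1 count of a C1q chain, at 0.0426 RPKM for C1qa, 0.182 for C1qb and 0.14 for C1qc. Tumor stromal replicate 1 was the highest for C1qa (1.06 RPKM, others 0.195 to 0.298) and tumor epithelial replicate 3 for C1qb (0.333, others 0.0153 to 0.0326). Cd55 was highest in tumor monocyte replicate 2 (0.299 RPKM, others 0.0413 to 0.0788) and lowest in tumor epithelial replicate 2 (0.723, others 1.71 to 1.88).

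Changes that differed between cell types by a test of the difference itself were those of C3ar1 (-4.48 on the log2 scale) and C5ar1 (-3.53) from blood to tumor, neutrophils less monocytes. From healthy to tumor, epithelial less stromal cells, they were those of C3 (5.23), C5ar1 (-4.42) and C1qa (-9.57), and the last rests on groups with few or no counts.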

How the results depend on the processing

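No called fold change of the 10 genes changed sign under the alternatives run, and 68 of all 2480 values did, each for a gene not called. Of the fold changes printed, 147 values lost the threshold, 33 gained it, 1115 stayed on their side and 7 changed sign. Those 7 were of C3 between tumor neutrophils and monocytes (0.21), at -0.05 with no filter, -0.01 with at least 10 counts, -0.00 without mitochondrial genes, -0.09 over all 40 libraries, -0.52 and -0.54 on log2(RPKM + 1) and log2(RPKM + 0.1), and -0.09 without tumor neutrophil replicate 2. Leaving out each library in turn gave it at -0.09 to 0.49. The number of the 10 genes called moved most in comparisons near the threshold. For tumor against blood neutrophils (1 called) it was 3 with no filter or over all 40 libraries, and 0 with at least 10 counts in every library or on log2(RPKM + 1). For monocytes (5) it was 3 with at least 10 counts and on log2(RPKM + 1). For blood neutrophils of tumor-bearing against healthy mice (1) it was 0 over all 40 libraries and with limma on RPKM at both pseudocounts, and 3 with no fold threshold. For epithelial cells (1) it was 2 with limma-voom and 0 with at least 10 counts, without mitochondrial genes, on log2(RPKM + 1) and with a replicate block. For stromal cells (3) it was 8 with DESeq2 and 5 on log2(RPKM + 0.1). For healthy blood neutrophils against monocytes (6) it was 3 with at least 10 counts. For tumor neutrophils against monocytes (4) it was 1 with at least 10 counts and 2 on log2(RPKM + 1) or with the animal as a block. For tumor monocytes against stromal cells (6) it was 1 with that block and 3 without tumor stromal replicates 1 and 2. For tumor stromal against epithelial cells (6) it was 2 with limma-voom, the replicate block or the animal block, 3 with at least 10 counts, 1 on log2(RPKM + 1) and 0 without replicates 3 and 4. The interaction of neutrophils and monocytes (2) gave 4 with DESeq2 and 1 with at least 10 counts, and that of epithelial and stromal cells (3) gave 5 with DESeq2 or on log2(RPKM + 1) and 1 with at least 10 counts. Apart from fewer genes tested with the minimum of 10 counts and fewer libraries where some were left out, the cause was not tested.

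Leaving out a library in turn gave 1 to 3 genes for neutrophils, 3 to 5 for monocytes, 0 to 1 for blood neutrophils, 0 to 0 for blood monocytes, 0 to 2 for epithelial cells, 0 to 3 for stromal cells, 6 to 7 for healthy blood cell types, 2 to 6, 6 to 7 and 4 to 7 for the tumor cell types in the order above, and 1 to 3 and 1 to 4 for the interactions. The replicate numbers did not pair libraries, since 9 of 40 pairs matched best by number and no comparison had every correlation above 0.1. The replicate block moved the count by over 1.5 times only in the comparisons of tumor with healthy epithelial cells and of tumor stromal with epithelial cells.

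The share of called genes that were higher moved with limma on log2 RPKM, which changes the test, the scaling and the pseudocount together. With pseudocounts of 1 and 0.1 it went from 71.1% to 35.8% and 25.2% for tumor neutrophils against monocytes (58.3% over all 40 libraries), from 48.8% to 61.8% and 73.7% for epithelial cells, from 45% to 29.6% and 22.8% for healthy blood cell types, from 66.6% to 72.9% and 46.7% for monocytes, from 72.9% to 62.1% and 59.4% for neutrophils, from 40.3% to 18.1% and 24.5% for stromal cells (52.9% over all 40 libraries), from 34% to 58.9% and 33.8% for tumor monocytes against stromal cells and from 47.6% to 87.8% and 85.6% for the epithelial and stromal interaction. For blood monocytes, with few calls, it went from 43.8% to 40% and 39.3%, and to 77.8% over all 40 libraries. Counts of C1qa, Cfb and the blood C1q chains were low, so differences there were often not detectable at this depth.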
